A study of Mus musculus with 6 samples.

Results

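The genes described here are 50 autosomal mouse genes that were read in every PBS library and were near 0 in every library labelled pIpC. They were chosen from the 55487 genes of the deposited table by 2 limits, a normalized count of at least 30 in each of the 3 PBS libraries and of at most 3 in each of the 3 pIpC libraries. Of the 11300 genes at 30 or more in every PBS library, 54 also met the second limit. Xlr and Gm14599 were left out because they lie on the X chromosome, and Cyp2a5 and Ptprt were left out by name. Because the limits used the values of all 6 libraries, the difference between PBS and pIpC in these genes is a description and carries no test.

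The libraries were made from GFP+ bone marrow cells of the femora and tibiae of recipient mice, 10 days after injection. In both groups the donor cells were CD45.2+ Mx1-Cre Brd9fl/fl cells carrying MA9, the MLL-AF9 fusion gene of acute myeloid leukemia. The strain was C57BL/6, and the recipients were CD45.1+. From the day after transplantation of 1000 cells, recipients received 3 doses of either PBS or 20 mg/kg pIpC on alternate days. pIpC mimics double-stranded RNA and sets off an interferon response, which turns on Cre from the Mx1 promoter so that floxed Brd9, a subunit of a chromatin remodelling complex, is deleted. By design the interferon response and the deletion would therefore come together in the pIpC group, and their parts cannot be told apart. In these libraries the Brd9 transcript was not lower with the pIpC label. Xist and markers of normal blood cells also moved with that label, as given below. The labels do not say whether the replicates came from separate mice or transplants, so p-values below measure only the spread between these samples.

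MLL fusion proteins bind chromatin and keep genes of immature blood cells, such as homeobox genes, in a transcribed state. The genes described here include some that are better known from other tissues, such as receptors of neurons and a filament protein of the lens. Genes with few CpG dinucleotides at their start site are often tissue-restricted, whereas housekeeping genes usually start in CpG islands.

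Some properties of the libraries stand beside every value below. Brd9 itself was at 1926.8, 1946.4 and 1631.9 normalized counts in the PBS libraries and at 2036.0, 2263.0 and 2011.4 in the libraries labelled pIpC. Its transcript was thus not lower where the deletion is labelled (log2 fold change 0.20, standard error 0.13, limma adjusted p = 0.259), and the exact 2-sided permutation test gave p = 0.1, the smallest that 3 against 3 allows. The count covers the whole gene and not the floxed exons alone. Markers of normal blood cells moved with the label: the 8 neutrophil markers summed to 14200 to 33600 in PBS and to 1870000 to 1940000 in pIpC, the 8 erythroid markers to 21.6 to 33.9 and 3370 to 4980, and the 8 B cell markers to 136 to 304 and 1280 to 2320, with Ms4a1 at 0 in PBS. All genes of these 3 lists passed the test as higher in pIpC. With limma at an adjusted p under 0.1, 25.0% of all 15020 genes tested were higher and 20.4% lower. Of 12 T and NK cell markers 7 could be tested, and of 10 dendritic cell markers 9, and all of those tested were also higher. All 12 T and NK cell markers summed to 33.9 to 52.6 in PBS and 444 to 513 in pIpC. All 10 dendritic cell markers summed to 124 to 149 and 646 to 906. Gata3, Trac and Ccr7 were at 0 in PBS. Macrophage markers were mixed, with 11 of 14 tested higher and 2 lower. All 17 listed summed to 11900 to 16200 in PBS and 9010 to 11300 in pIpC. Of 8 mast cell and basophil markers tested, 6 were higher and 1 lower, and all 12 listed summed to 4440 to 6790 and 11200 to 13300. Xist, the RNA of the inactive X chromosome, was at 46.6 ± 28.8 (SD, n = 3) in PBS and 21500 ± 4100 in pIpC. The part that these differences have in the levels of the 50 genes was not tested. In bulk RNA, fewer cells of a kind and less RNA per cell cannot be told apart.

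The start sites of 4 of the genes are shown because they differ from each other in base composition. They were picked and do not stand for all 50 genes, of which some, such as Galnt9 with 41 CpG, were richer in CpG. Hpse2 had the highest PBS level of the 50 genes and Npy5r the highest among those without a read in pIpC, while Cyp2a4 and Retnla were lower in level and are poor in CpG. Their start sites in RefSeq lie within 58 bases of those in the gene annotation used for the counts. Each window runs 5′ to 3′ from 250 bases before to 50 bases after the start site in RefSeq (GRCm38.p6), and capitals mark each CpG. The windows are chr19:43388306-43388605 (minus strand) for Hpse2, chr8:66688045-66688344 (minus) for Npy5r, chr7:26306942-26307241 (plus) for Cyp2a4 and chr16:48842359-48842658 (plus) for Retnla.
Hpse2: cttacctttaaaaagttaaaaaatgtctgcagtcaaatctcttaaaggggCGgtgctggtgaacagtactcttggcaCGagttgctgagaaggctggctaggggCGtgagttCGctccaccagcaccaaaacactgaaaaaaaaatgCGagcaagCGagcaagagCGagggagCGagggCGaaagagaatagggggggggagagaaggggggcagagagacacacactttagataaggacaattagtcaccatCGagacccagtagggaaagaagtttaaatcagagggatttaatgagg
Npy5r: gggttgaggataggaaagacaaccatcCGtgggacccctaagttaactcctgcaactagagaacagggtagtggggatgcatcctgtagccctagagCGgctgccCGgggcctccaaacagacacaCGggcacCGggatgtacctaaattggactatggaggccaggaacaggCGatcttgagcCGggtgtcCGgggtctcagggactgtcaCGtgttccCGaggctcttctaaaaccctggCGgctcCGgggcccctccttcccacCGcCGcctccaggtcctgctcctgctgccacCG
Cyp2a4: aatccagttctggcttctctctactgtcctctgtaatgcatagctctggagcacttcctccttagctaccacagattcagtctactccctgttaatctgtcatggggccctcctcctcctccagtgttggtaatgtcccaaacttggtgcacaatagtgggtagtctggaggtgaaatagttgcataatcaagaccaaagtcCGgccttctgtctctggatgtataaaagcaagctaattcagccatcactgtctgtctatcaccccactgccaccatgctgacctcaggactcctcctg
Retnla: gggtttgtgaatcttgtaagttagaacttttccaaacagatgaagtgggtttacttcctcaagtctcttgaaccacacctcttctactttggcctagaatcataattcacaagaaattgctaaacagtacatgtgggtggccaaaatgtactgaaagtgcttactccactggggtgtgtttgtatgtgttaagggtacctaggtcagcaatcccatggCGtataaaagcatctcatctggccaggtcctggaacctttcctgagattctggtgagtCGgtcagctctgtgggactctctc

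Hpse2 holds 10 CpG and Npy5r 15, against 1 in Cyp2a4 and 2 in Retnla. Relative to the number expected from their C and G content, the ratios were 0.619, 0.526, 0.0581 and 0.134.

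Over the 50 genes, 25324 reads were counted in the PBS libraries and 83 in the pIpC libraries. Scaled to the reads on genes in each library (CPM) this was 411, 411 and 386 in the PBS libraries and 1.16, 0.984 and 1.44 in the pIpC libraries. On the deposited scale the pIpC level was 0.329% of the PBS level. No read of 20 genes was counted in any pIpC library, 20 genes had 1 to 3 reads over the 3 libraries, and 10 had 4 or more, up to 7 in Gal3st1. In the other direction, 204 genes were at 30 or more in every pIpC library and at 3 or less in every PBS library. The mean PBS level of the 50 genes ran from 37.8 normalized counts (Cyp2u1) to 1080 (Hpse2), with a median of 101. Per kilobase of exon the median was 48.2, against 166 for the 11300 genes at 30 or more in every PBS library, and the range was 3.98 (Hydin) to 429 (Retnla).

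**Figure D1:**
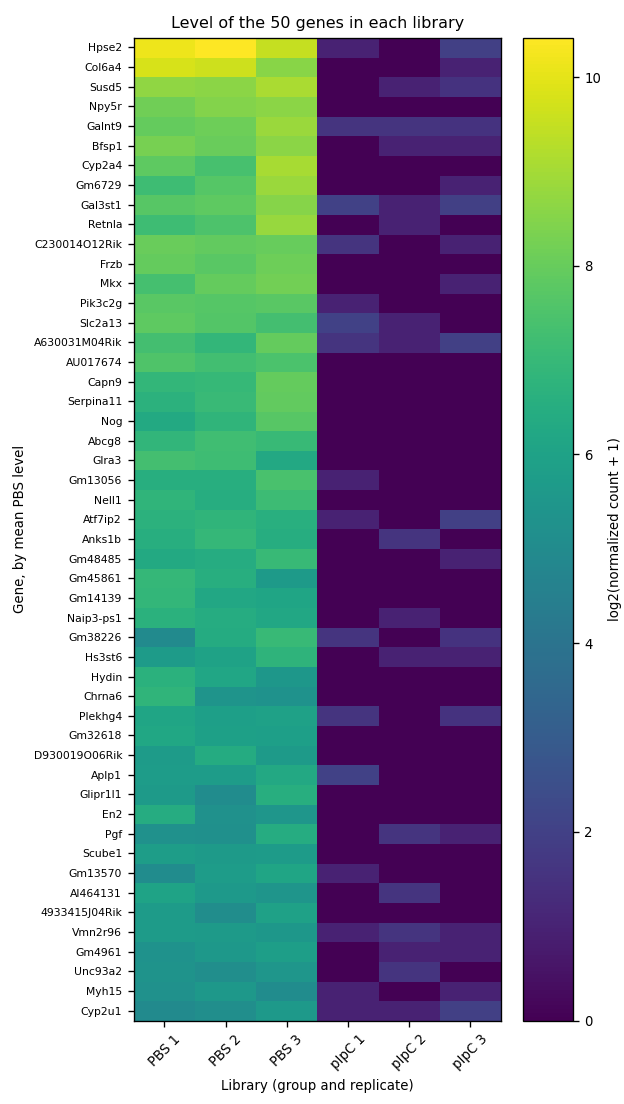
Level of each of the 50 genes (rows, by mean PBS level) in each of the 6 libraries (columns), as log2 of the normalized count plus 1. The 3 PBS columns fade from Hpse2 at the top to Cyp2u1 at the bottom, the pIpC columns are near 0 throughout as the choice of genes requires, and PBS replicate 3 departs from the other PBS columns in rows such as Cyp2a4, Gm6729 and Retnla.

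The limits lie within a continuum of values. Nearest above the PBS limit were Cyp2u1 (lowest PBS library 30.28), Gm38226 (31.15) and Glipr1l1 (32.39), and just under it were Pom121l2 and Gm18517 (both 29.42) and Npy1r (28.34). At the pIpC limit Gal3st1, Slc2a13 and Aplp1 had a highest library of 2.99, which is 3 reads. Sdk1, Ccdc154 and AC141882.2 stood just outside at 3.07 in pIpC replicate 2, which is also 3 reads. In that library 1 read is worth 1.021686 normalized counts. With the limits read on recovered reads, 56 genes met them.

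By annotation, 37 of the 50 genes were protein coding, 8 were long intergenic noncoding RNAs, 2 were transcripts of unsettled status, 1 was an antisense RNA and 2 were pseudogenes. Noncoding RNAs of the intergenic kind made up 16.0% of the 50 genes and 1.47% of the 11300 genes at 30 or more in every PBS library. The genes lay on 18 chromosomes. Chromosome 8 held 7 of them (14.0%), Npy5r, Capn9, Glra3, Gm45861, Hydin, Chrna6 and Plekhg4, where it holds 5.50% of the 11300 genes.

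Receptors of nerve cells formed a group of 3. Npy5r, a G protein-coupled receptor for neuropeptide Y, was at 284.7, 358.3 and 391.6 normalized counts in the PBS libraries and had no read in pIpC, at least 347-fold lower in mean normalized count when 3 reads over the group are taken as the floor. Glra3, a subunit of the glycine-gated chloride channel, was at 158.3, 145.8 and 78.1 in PBS and at 0 in pIpC (at least 128-fold lower). Chrna6, a nicotinic acetylcholine receptor subunit, was at 111.6, 41.5 and 38.5 in PBS and at 0 in pIpC (at least 64.2-fold lower), so its first PBS library stood apart from the others. Vmn2r96, a vomeronasal receptor gene of a large family, was at 45.3 to 51.0 in PBS with 4 reads in pIpC.

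The genes that encode partners of these receptors did not share one pattern. They were picked for their known roles after the values of these libraries had been seen. Npy1r, the other neuropeptide Y receptor of the locus, was at 51.0, 28.3 and 44.1 in PBS and 0 in pIpC. Chrnb3, the neighbour and partner of Chrna6, was at 12.1, 21.3 and 5.7 in PBS and 0 in pIpC, a mean under the minimum for the test. Another partner, Chrnb2, was at 71.0 ± 31.3 (SD, n = 3) in PBS and 88.0 ± 8.01 in pIpC (limma adjusted p = 0.430). Glrb, the subunit that joins Glra3 in synaptic glycine receptors, had no read in any library. Thus Npy5r and Chrna6 stood beside a neighbouring relative that was also read only in PBS, while Glra3 was read without Glrb.

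Enzymes and proteins that act on sugars and on the extracellular matrix included the genes with the highest levels. Hpse2, a heparan sulfate-binding relative of heparanase, was at 1146.4, 1367.5 and 731.1 normalized counts in PBS and at 1.0, 0.0 and 2.9 in pIpC, or 0.121% of the PBS level from pooled reads on the deposited scale (exact 95% binomial interval 0.033% to 0.310%). Hpse, the heparanase that cleaves heparan sulfate, went the other way, from 53.4 ± 5.16 (SD, n = 3) in PBS to 853 ± 102 in pIpC (log2 fold change 3.97, limma adjusted p = 2.29e-05). Such intervals cover counting error only.

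Col6a4, a chain of collagen VI, was at 882.5, 791.5 and 375.7 in PBS and at 0.0, 0.0 and 1.0 in pIpC (0.047% of the PBS level). Of the other chains, Col6a3 fell from 1580 ± 823 (SD, n = 3) in PBS to 11.3 ± 0.314 in pIpC (log2 fold change -6.82, limma adjusted p = 8.38e-05), and its PBS libraries, 1929.4, 2165.1 and 637.1, were also lowest in PBS replicate 3. Col6a1 was at 12.7 in PBS and 13.5 in pIpC and Col6a2 at 9.53 and 6.32, so these chains of the usual collagen VI fibre were at low levels in both groups. Galnt9, which starts O-linked sugar chains, was at 246.6, 273.3 and 461.7 in PBS and near 2 in each pIpC library. Gal3st1, which makes the myelin lipid sulfatide, was at 209.4, 224.7 and 363.3 in PBS and kept the most reads of the 50 genes in pIpC, 7 or 0.895% of the PBS level. Ugt8a, which makes the lipid that Gal3st1 sulfates, went from 1 read in PBS to 73.9, 158.4 and 80.3 normalized counts in pIpC. Hs3st6, a heparan sulfate sulfotransferase, was lower in level, at 51.0, 63.8 and 108.6 in PBS.

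Secreted inhibitors and growth factors were a further group. Frzb, a secreted antagonist of Wnt, was at 246.6, 217.6 and 276.1 in PBS and at 0 in pIpC (at least 248-fold lower). Nog, which encodes the BMP antagonist noggin, was at 78.7, 111.3 and 209.4 in PBS and at 0 in pIpC (at least 134-fold lower). Frzb varied little among the PBS libraries, whereas Nog was highest in PBS replicate 3. Nell1, a secreted protein of bone formation, was at 89.1 to 140.3 and Scube1, a secreted and surface protein with EGF-like repeats, at 49.6 to 55.4, both without a read in pIpC. Pgf, placental growth factor of the VEGF family, was at 38.1, 36.4 and 86.0 in PBS with 3 reads in pIpC. Its relative Vegfa was at 2670 ± 375 (SD, n = 3) and 1870 ± 110 (log2 fold change -0.51, limma adjusted p = 0.0320). Retnla, a small secreted protein of alternatively activated macrophages, was at 144.5, 180.2 and 445.9 in PBS with 1 read in pIpC.

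Metabolic genes and transporters made up another part. Cyp2a4, a steroid hydroxylase, was at 225.0, 166.0 and 526.2 in PBS and at 0 in pIpC (at least 307-fold lower). It is a near-identical copy of Cyp2a5, which was at 4134.8, 2676.2 and 7837.9 in PBS and at 0 in pIpC, so reads of one may have been assigned to the other and the level of Cyp2a4 is uncertain. Both had their highest value in PBS replicate 3. Cyp2u1, a fatty acid hydroxylase, was at 30.3, 34.4 and 48.7 in PBS with 5 reads in pIpC, the highest share left of the 50 genes at 4.483% (exact 95% interval 1.428% to 10.776%). Slc2a13, a myo-inositol transporter, was at 225.8, 197.4 and 158.4 in PBS. Abcg8, which forms the sterol transporter with Abcg5, was at 115.9, 146.8 and 129.0 in PBS and at 0 in pIpC (at least 131-fold lower). Abcg5, which overlaps Abcg8 on the opposite strand, had 1 read in the PBS libraries and 0 in pIpC, so Abcg8 was read without its partner.

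Regulators, enzymes and structural proteins completed the coding genes. Mkx, a homeobox factor of tendon, was at 163.5, 245.0 and 294.2 in PBS with 1 read in pIpC, and En2, the engrailed factor of the midbrain and hindbrain, at 85.7, 37.5 and 43.0 with none. En1 had no read in any library. Pik3c2g, a class II phosphoinositide kinase, was at 215.4, 205.5 and 212.8 in PBS, with 1 read in pIpC. Bfsp1, the lens filament protein filensin, was at 311.5, 263.2 and 390.4 with 2 reads in pIpC. Susd5, a sushi-domain protein, was at 409.2, 384.6 and 539.8 with 3 reads in pIpC. Capn9, a calpain protease of the stomach, was at 118.5, 126.5 and 249.0, and Serpina11, a serpin, at 103.8, 133.6 and 239.9, both at 0 in pIpC and highest in PBS replicate 3. Hydin, a protein of the ciliary axoneme, was at 99.5, 70.9 and 45.3 and at 0 in pIpC. The remaining coding genes, Atf7ip2, Anks1b, Gm45861, Gm14139, Plekhg4, Aplp1, Glipr1l1, AI464131, Unc93a2 and Myh15, lay between 32.4 and 122.0 in each PBS library, with 0 to 4 reads in pIpC.

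**Figure D2:**
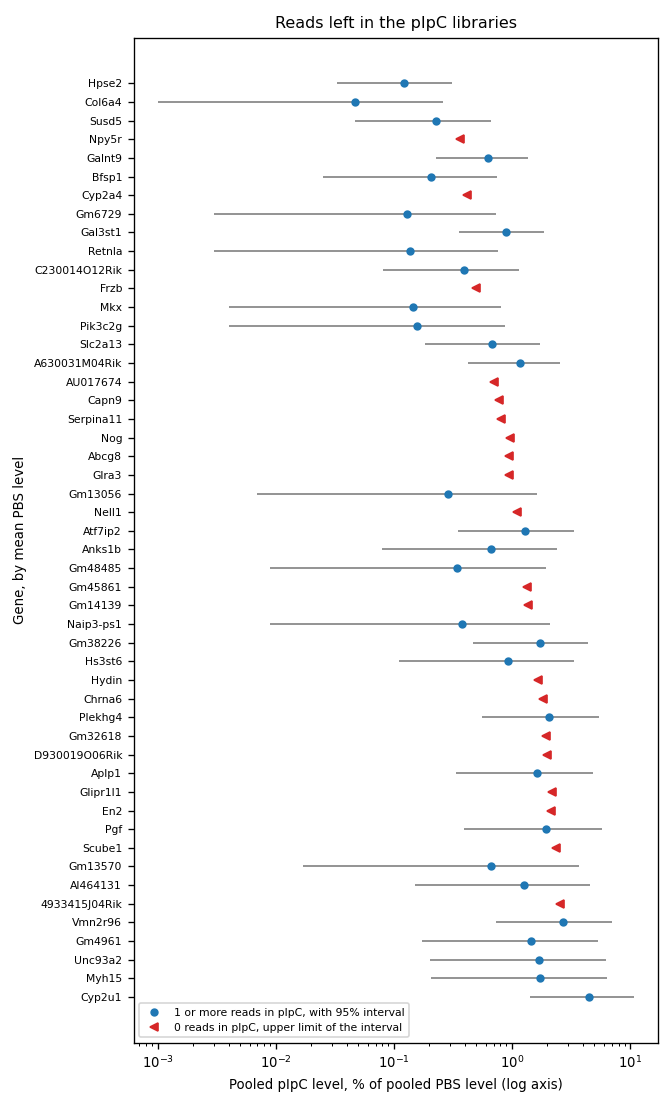
Level left in pIpC for each of the 50 genes (rows, by mean PBS level), as the percent of the pooled PBS level on a log axis. Blue points carry an exact 95% binomial interval and red triangles mark the upper limit of genes without a read in pIpC. The limits rise down the plot because the PBS level falls, from 0.361% for Npy5r to 2.55% for 4933415J04Rik among genes without a read, so a low PBS level allows no firm statement on how little is left.

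Among the noncoding RNAs, Gm6729 was at 142.8, 204.5 and 458.3 in PBS with 1 read in pIpC. C230014O12Rik was at 259.6, 238.9 and 258.0 with 3 reads, and A630031M04Rik at 156.6, 118.4 and 247.8 with 6. AU017674 was at 188.6, 152.8 and 176.5 and at 0 in pIpC (at least 174-fold lower). The other 4 intergenic RNAs (Gm13056, Gm48485, Gm32618 and Gm4961), the antisense RNA D930019O06Rik and the transcripts Gm38226 and 4933415J04Rik were at 31.1 to 169.7 in each PBS library. Of the pseudogenes, Naip3-ps1 was at 74.7 to 100.4 and Gm13570 at 32.9 to 69.0. Gm13570 lies inside Baz2b on the same strand, a gene at 7260 to 17200 in PBS and 3280 to 4010 in pIpC, so reads of Baz2b may be counted in it. Naip3-ps1 belongs to a family of near-identical copies, so its reads are uncertain too. Libraries were labelled as unstranded, and reads of a gene and of an overlapping gene on the other strand then cannot be separated.

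The PBS libraries differed among themselves. On the deposited scale the 50 genes were at a median log2 ratio of 0.27 in PBS replicate 3 against the mean of replicates 1 and 2, where the 11300 genes had 0.05. Rescaled to CPM of recovered reads, both medians moved, to -0.04 and -0.26, so the sign for the 50 genes depends on the scaling. The median of the 50 genes was above that of the 11300 genes on both scales. On the deposited scale 9 of the 50 genes were over 2-fold higher in PBS replicate 3 and 2 were over 2-fold lower, where the background over the 11300 genes was 12.2% higher and 8.73% lower. On the CPM scale, 3 were higher and 6 lower, with a background of 5.11% higher and 16.8% lower.

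Held on both scales were Retnla (2.75-fold on the deposited scale, exact 95% interval 2.37 to 3.18, and 2.22-fold in CPM), Cyp2a4 (2.69 and 2.18) and Gm6729 (2.64 and 2.14), which were higher in PBS replicate 3. Col6a4 (0.449-fold and 0.363-fold) and Gm45861 (0.465 and 0.376) were lower on both. Chrna6, Glra3, Hydin and Hpse2 were over 2-fold lower in CPM only, at 0.406 to 0.471. For Chrna6 the high value was in PBS replicate 1 alone, with replicates 2 and 3 at 41.5 and 38.5 normalized counts. Serpina11, Capn9, Nog, Gm38226, Glipr1l1 and Pgf were over 2-fold higher on the deposited scale only. Among the PBS libraries the 50 genes thus moved in both directions. On the deposited scale, 22.0% of them were over 2-fold apart between PBS replicate 3 and replicates 1 and 2. For all genes at 30 or more in every PBS library this share was 20.9%, so such moves were about as common there.

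PBS replicates 1 and 2 were close to each other, with 0.274% of the 11300 genes over 2-fold apart, yet 3 of the 50 genes were. Chrna6 had 129 reads in replicate 1 and 41 in replicate 2, a ratio of replicate 2 to 1 of 0.372 on the deposited scale (exact 95% interval 0.255 to 0.532). En2 had 99 and 37 reads, a ratio of 0.437 (0.291 to 0.644). Gm38226 went the other way, with 36 and 84 reads and a ratio of 2.73 (1.83 to 4.15). The 50 genes have low counts beside most of the 11300 genes, and each interval covers counting error only.

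**Figure D3:**
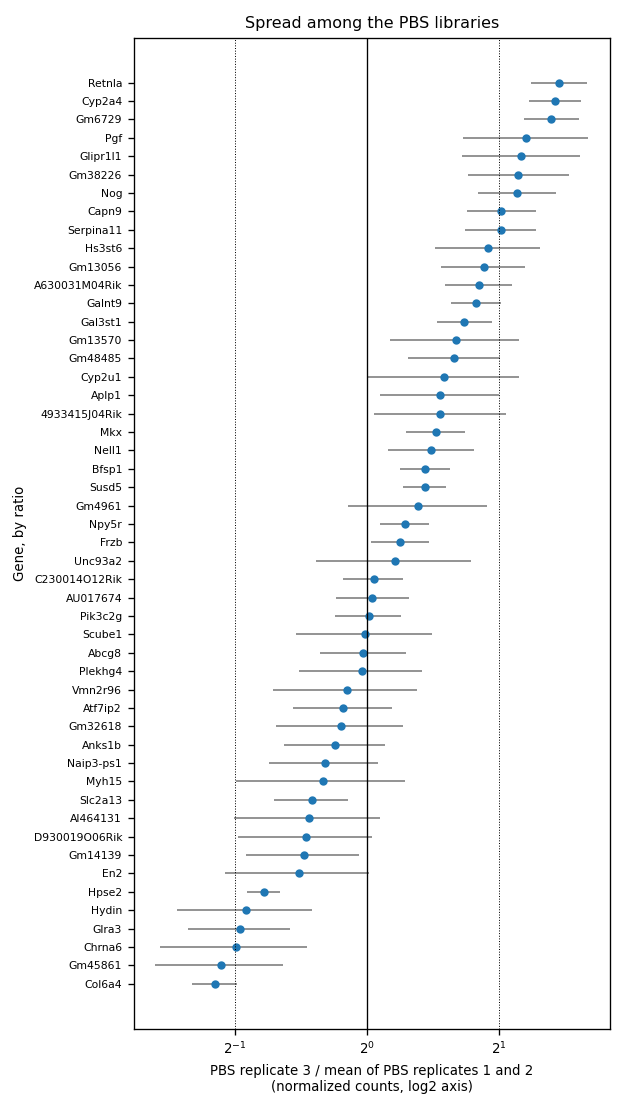
Ratio of PBS replicate 3 to the mean of PBS replicates 1 and 2 for each of the 50 genes (rows, by ratio) on a log2 axis, from normalized counts, with exact 95% binomial intervals; dotted lines mark a 2-fold difference. The ratios run from 0.449 (Col6a4) to 2.75 (Retnla), and in CPM all points would shift to the left by about the same factor.

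Some of the 50 genes lay near each other. Chrna6 and Gm45861 start 33156 bases apart on chromosome 8. Gm45861 was lowest in PBS replicate 3, at 49.8, whereas Chrna6 was high in replicate 1 alone, at 111.6 against 41.5 and 38.5. Gm6729 and Gm48485 start 121068 bases apart on chromosome 10 on opposite strands, and both were highest in PBS replicate 3, at 458.3 and 130.1. Retnla and Myh15 start 214935 bases apart on chromosome 16. Retnla was highest in PBS replicate 3, whereas the ratio of Myh15 there was 0.793 with an interval that holds 1 (0.502 to 1.22).

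Genes that lie beside the 50 genes were counted with the fit over all genes. The 50 genes themselves were kept out of this count. Cyp2a5, which met both limits and was left out of the 50 by name, did not lie within 500 kb of a start site and was not counted either. Within 500 kb of a start site, 471 other genes were tested, and 122 were lower in pIpC (25.9%) and 79 higher (16.8%). Over all 15020 genes tested with limma at an adjusted p under 0.1, 20.4% were lower and 25.0% higher. The median log2 fold change was -0.14 for these neighbours and 0.01 for all genes tested. Within 100 kb, 36 of 102 neighbours were lower (35.3%), with a median of -0.39. Neighbouring genes share regions and are not independent replicates, and no test of these shares was made. Without pIpC replicate 1, 2 or 3, the counts within 500 kb were 81, 80 and 78, and within 100 kb 26, 26 and 24, which is 25.5%, 25.5% and 23.8%, against 14.0%, 12.6% and 12.8% of all genes.

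The neighbours that fell most were Hpgd, Gm45540, Naip6, Ccdc154 and Npy1r. Hpgd, the enzyme that inactivates prostaglandins, lies 354125 bases from the start of Glra3 and fell from 32900 ± 1460 (SD, n = 3) in PBS to 52.2 ± 14.9 in pIpC (log2 fold change -9.31, limma adjusted p = 1.03e-05). Gm45540, 370844 bases from the same start, was at 1600, 1530 and 212 in PBS and fell by 8.87 on the log2 scale. Hpgd was thus even over the PBS libraries while Gm45540 and Glra3 were lower in PBS replicate 3.

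Naip6, an inflammasome receptor gene, lies 2304 bases from the start of Naip3-ps1 and fell from 1450 ± 728 (SD, n = 3) to 4.67 ± 2.19 (log2 fold change -7.90, limma adjusted p = 6.84e-05). Its paralogs Naip5 and Naip2 were at log2 fold changes of -0.73 (limma adjusted p = 0.0159) and -0.44 (0.0935). Ccdc154, 409473 bases from Hs3st6, was at -6.07. Npy1r, 9064 bases from Npy5r, was at -5.36 (standard error 0.41, limma adjusted p = 0.000125).

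Among the neighbours that rose most were Dmkn (log2 fold change 7.18), Retnlg (6.95), Ciita (5.71) and Il1r2 (5.56). Retnlg, a neutrophil relative of Retnla that lies 30070 bases from its start, rose from 106 ± 27.0 (SD, n = 3) to 13000 ± 1070 (limma adjusted p = 1.25e-05), while Retnlb had 2 reads in PBS and 5 in pIpC. Genes of this one locus thus went in opposite directions, with Retnlg rising beside the 8 neutrophil markers that were also higher. Ciita, the master regulator of MHC class II genes, lies 287347 bases from Atf7ip2 and was at 1.83 in PBS and 126 in pIpC.

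**Figure D4:**
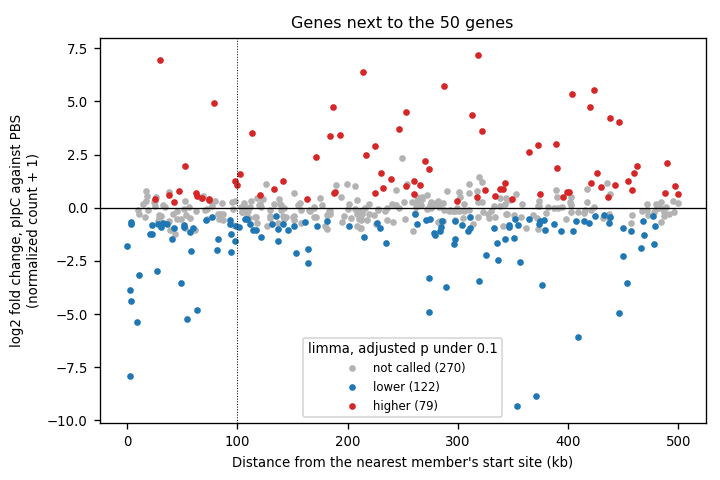
Each point is 1 of the 471 tested genes within 500 kb of one of the 50 genes, by its distance in kb from the nearest start site (x axis) and its log2 fold change between pIpC and PBS (y axis, normalized count plus 1). Blue points were lower (122) and red points higher (79) with limma at an adjusted p under 0.1, and the dotted line marks 100 kb, within which 36 of 102 were lower.

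Of the 50 genes, 33 matched a start site in the RefSeq table. Coding genes without a match, such as Nog, En2, Mkx, Hs3st6 and Cyp2u1, are not covered by the values below. Their windows had a median CpG ratio of 0.432, against 0.786 for the 8515 matched genes at 30 or more in every PBS library and 0.507 for all 20542 genes of the table. A ratio of at least 0.6, a usual sign of a CpG island, was found in 12 of the 33 (36.4%), in 75.7% of the 8515 and in 44.1% of all genes. The median number of CpG in the window was 10, 21 and 11, and the median GC content 56.0%, 61.0% and 55.0%. The RefSeq start lay over 500 bases from the start in the counting annotation for Gm6729 (5130 bases), Pik3c2g, Vmn2r96 and Plekhg4. Among the 29 genes within 500 bases the median ratio was 0.519, against 0.794 for 7560 genes read in PBS and 0.578 for 16730 of all genes, and 41.4%, 77.4% and 48.4% had a ratio of at least 0.6. In CpG content the matched genes thus lay nearer to the table as a whole than to the genes that were read in the PBS libraries.

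Motifs were searched on both strands of the same windows. The TATA box letters TATAAA were present in 6 of the 33 (18.2%), in 6.40% of the 8515 genes read in PBS and in 13.2% of all genes. The C/EBP letters TTGCNNCAA were in 1 of the 33 (3.03%, against 1.59% and 1.94%), the HOX and MEIS letters TGATTNAT in 1 (3.03%, against 1.06% and 3.09%), the GATA letters AGATAA in 4 (12.1%, against 5.97% and 10.2%), and the RUNX letters TGTGGT in 4 (12.1%, against 12.7% and 15.8%). The PU.1 letters GAGGAAG were in 5 (15.2%, against 13.5% and 13.6%) and the E-box letters CACGTG in 2 (6.06%, against 10.8% and 7.64%). A match says only that these letters stand in the window.

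**Figure D5:**
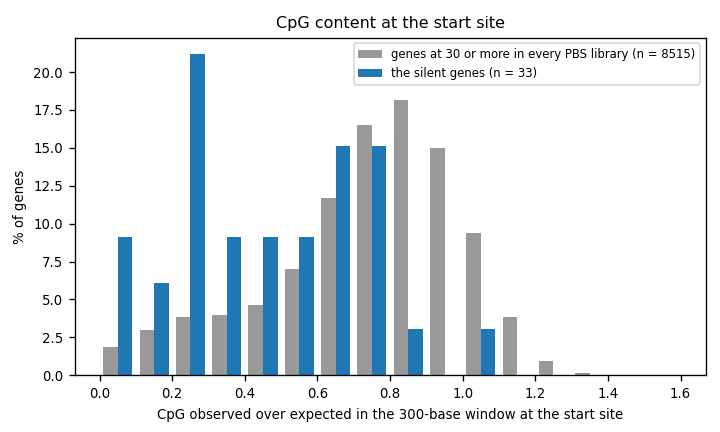
Share of genes (y axis, %) by the CpG ratio of the 300-base window at the start site (x axis, observed over expected, in steps of 0.1) for the 33 matched genes (blue) and the 8515 matched genes at 30 or more in every PBS library (grey). Most blue bars lie between 0 and 0.8 with a median of 0.432, whereas grey bars peak between 0.7 and 1.0.

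Gene lists by family hold 6 of the 50 genes. The lists are incomplete, since Glra3, Mkx, Frzb and Nog stand in none of them, so the counts below describe the listed genes alone. The list of 123 developmental homeobox genes outside Hoxa holds En2, and of its 8 genes tested 3 were lower and 5 higher in pIpC. The 299 ion channel and transmitter receptor genes hold Chrna6, with 18 lower and 30 higher of 76 tested (median log2 fold change 0.28). The 147 collagen, laminin and matrix protease genes hold Col6a4, with 23 lower and 30 higher of 75 (0.47). The cytochrome P450 and related enzyme list of 219 genes holds Cyp2a4 and Cyp2u1, with 19 lower and 21 higher of 61 (-0.12). The 390 solute carriers hold Slc2a13, with 53 lower and 73 higher of 228 (0.07). In each of these lists more of the tested genes were higher than lower, as was so over all genes tested (25.0% higher and 20.4% lower). The share that was lower and the share that was higher were both above these values in each list.

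None of the 50 genes was in the other 14 lists. Among those, the 19 MLL fusion leukemia regulators outside Hoxa had 10 lower and 5 higher of 18 tested (median -1.0), and the 400 zinc finger genes named Zfp had 65 lower and 45 higher of 329 (-0.04). Imprinted genes had 3 lower and 5 higher of 12, germline genes 2 and 2 of 5, and genes known to differ between inbred strains 5 and 4 of 17 (0.10). Of 47 synaptic adhesion and cadherin genes 10 were lower and 24 higher (1.07), and of 44 genes of the Wnt, Notch, Hedgehog and TGF-beta families 9 were lower and 22 higher (0.83). These counts stand beside 20.4% lower and 25.0% higher over all 15020 genes tested.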

How the data were processed

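RNA-seq was run on GFP+ bone marrow cells in 3 PBS and 3 pIpC samples, with poly(A)-selected libraries that the labels call unstranded. The authors deposited 1 table of normalized counts per gene, a non-negative signal in which each library's counts were divided by a size factor. Whole reads were recovered from the steps of that deposited signal (100% of values within 0.01 of a whole read), giving 19277439 to 22378154 reads per PBS library and 22348517 to 23586722 per pIpC library. The submitters' processing notes name HISAT2 2.2.1, SAMtools, Subread, featureCounts, edgeR and GRCm38, whereas the methods of the study name STAR, RSEM and DESeq2, and which of them made the table is not given in the sources used here. They also differ on the sort (GFP+ in the labels, c-Kit+ in the methods) and on strandedness.

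Gene names and positions were matched for 55227 of 55487 genes. Genes with a mean of at least 10 (15020) were tested with limma 3.58.1 (R 4.3.3, intensity trend) on log2(normalized count + 1). A pseudocount of 1 pulls the fold change of a low gene towards 0. The threshold was 0.1 on the p adjusted by Benjamini and Hochberg. edgeR 4.0.16 and DESeq2 1.42.0 were run on the recovered reads as alternatives, and the code was tested on simulated data. Other alternatives were the pseudocount, the filter, the threshold, quantile normalization, a replicate block and leaving out each library. Intervals are exact binomial (Clopper-Pearson, 95%) on reads. For genes without a read in pIpC, the fold bound takes 3 reads over the group, converted to normalized counts. The upper limit of the exact interval allows a smaller fold than this bound. CpG ratios are observed over expected in 300-base windows.

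The members and the gene lists were chosen with earlier results of these data known. Named were the 20 genes with the highest PBS mean, genes in a list or within 500 kb of another, the 3 nearest to each limit on both sides, Brd9, and the 5 neighbours lowest and highest in fold change. Some items that this rule gives are not reported here. The other genes were named by role, so as to account for each one, after their values were seen. Sequences were taken from RefSeq for 4 genes.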

Additional observations from a re-analysis of the deposited data

How the results depend on the processing

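The number of silent genes depended on the limits, with 33 genes at a minimum of 50 in PBS, 28 at a maximum of 1 in pIpC and 124 at a maximum of 10, and 55 to 69 with 1 library left out. Genes changed numbered 6808 (3750 higher, 3058 lower) and 4551 to 9829 with 1 library left out; quantile normalization gave 3244 higher and 4078 lower. Neighbours lower in pIpC numbered 36 within 100 kb and 217 within 1000 kb, and 78 to 177 with 1 library left out; within 100 kb they numbered 24 to 52. The neighbours' median was -0.39 within 100 kb and -0.27 under quantile normalization, and -0.16 to -0.13 with 1 library left out; the cause of these moves was not tested. Brd9 stayed without a call in the 12 alternatives run, at 0.12 to 0.24 with 1 library left out. The counts within 100 kb with other tools or without a library were chosen after seeing the data.

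Replicate numbers are shared by the groups. Samples of the same number had correlations of deviations of -0.117, 0.143 and 0.041. Pairs of unlike number ran from -0.176 to 0.154. With 3 libraries per group these values cannot show whether samples of the same number share more than the number. With the replicate block 6095 genes changed, 104 neighbours were lower, 33 of them within 100 kb, and Brd9 was at 0.20 (limma adjusted p = 0.375). Depth limits what can be said of the lowest genes, since a single read in pIpC is a sizeable share of their PBS level.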
